A study of Felis catus with 8 samples.

Results

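Liver gene expression of cats fed monosodium glutamate (MSG), a flavour enhancer, was compared with that of cats fed the same base diet without it, on each of 2 base diets. All 8 arrays of the series belong to this comparison, 4 with MSG and 4 without, because every diet is either a base diet or that base diet with MSG added. The MSG change of a gene is the mean of its 2 differences in log2 intensity, the MSG diet minus the control diet and the combined diet minus the trans-fat/HFCS diet. Attention then falls on genes that moved the same way on both bases. A gene was called where its mean change had a Benjamini-Hochberg adjusted p under 0.05 in limma over the 17910 genes tested. A called gene was taken as carried by both bases where its 2 changes had the same sign and the smaller was at least 0.5 of the larger, and as carried by 1 base otherwise.

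All animals were male domestic cats (Felis catus) aged 9 months, and the tissue was snap-frozen liver. Control cats ate standard chow, the MSG group ate chow with 1.125% MSG, the trans-fat/HFCS group ate a diet containing trans fat at 8.6% and high-fructose corn syrup (HFCS) at 24%, and a combined group received all 3 additions at those levels. Dams were on these diets from 3 weeks before mating through nursing and their sons were weaned onto them, so no group separates exposure before birth from the later diet. Each diet has 2 arrays. The labels give each array its own cat number, say nothing of litters and do not exclude pooled RNA, so the p-values measure the spread between arrays. Cat RNA was hybridised to a human array (HuGene 1.0 ST), so each probe set depends on how well the cat transcript matches the human sequence.

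Glutamate is an amino acid that the liver takes up, transaminates and feeds into energy metabolism, urea formation and glutamine synthesis. Hepatocytes answer nutrient, hormone and stress signals through immediate early transcription factors such as FOS and EGR1, whose RNAs appear and vanish quickly, and through feedback inhibitors that shut the same signals down. They also turn cholesterol into bile acids, a pathway that starts with CYP7A1. Of 18 listed hepatocyte markers 16 were measured. ALB lay between log2 9.63 and 10.06 and CPS1 between 9.78 and 10.07 on the 8 arrays, and the dimmest, ASGR2, between 4.01 and 4.70, at the 60.7th percentile of tested genes. None of the 16 was called for MSG, where 0.329% of all tested genes were, and the median change of the 16 was 0.04. In bulk liver, fewer cells of a type and less RNA per cell cannot be told apart.

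limma called 59 genes for MSG, 0.329% of those tested, with 8 higher (0.0447%) and 51 lower (0.285%). Of the 59, 18 were carried by both bases (0.101% of genes tested), 2 of them higher and 16 lower with MSG. The other 41 were carried by 1 base, 28 of them with the larger change on chow and 13 with the larger change on the trans-fat/HFCS base. Mean changes of the 18 genes lay between 0.73 and 1.51 in size, with adjusted p between 0.0018 and 0.048 in limma. In all 18 both MSG arrays lay beyond both arrays of their own base, on each base and in the same direction, which 3.3% of all tested genes did upwards and 3.77% downwards. In 15 of the 18 the 4 MSG arrays also lay apart from all 4 others, against 1.09% of tested genes upwards and 1.59% downwards. These same values chose the genes, so the counts describe them and support nothing further. The 0.5 limit keeps out genes whose change differs widely between the bases, so that none of the 18 passed the test of that difference follows from the choice (limma adjusted p between 0.51 and 0.88).

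A change on each base taken alone was a stricter demand. On chow alone 7 of the 18 were called, and on the trans-fat/HFCS base alone only PHOSPHO1 was, where 0.296% and 0.179% of all tested genes were called. A test that asks for both changes at once, using the larger of a gene's 2 p-values, called no gene. The smallest adjusted p in limma was 0.65, for PHOSPHO1, and 128 genes had an unadjusted p under 0.05 (0.715%), 34 higher and 94 lower. Among all tested genes 48% had the same sign on both bases, and 19.2% also had a smaller change of at least 0.5 of the larger. Changes of at least 0.5 on the log2 scale on each base were found with the same sign in 56 higher and 96 lower genes, and with opposite signs in 139 genes.

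**Figure D1:**
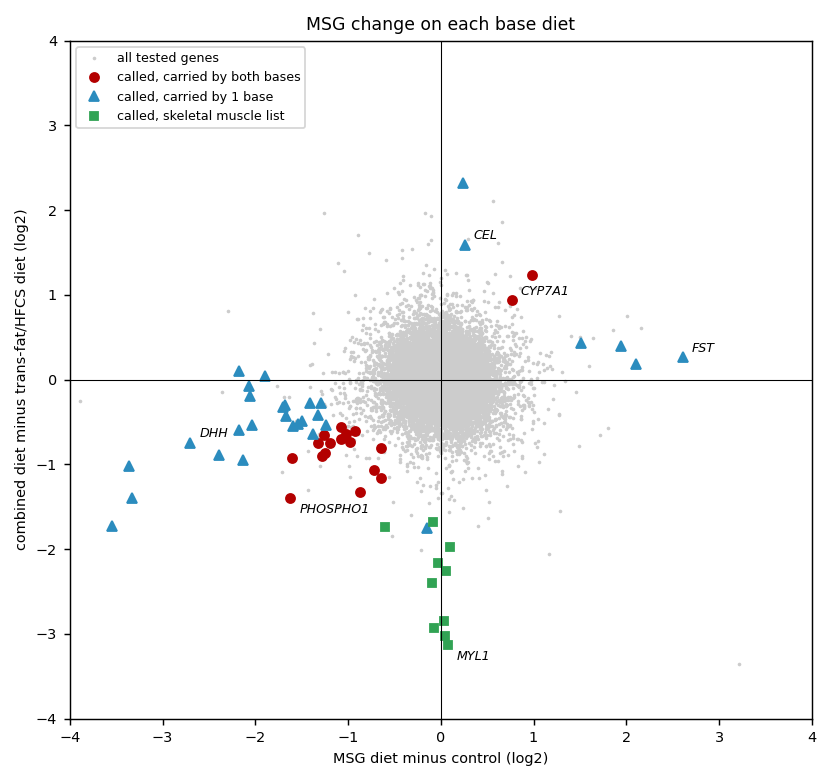
MSG change of each gene on chow (horizontal axis, log2) against that on the trans-fat/HFCS base (vertical axis, log2), each the difference of means of 2 arrays. Grey points are all tested genes, red circles the 18 called genes carried by both bases, blue triangles called genes carried by 1 base, and green squares called members of the skeletal muscle list. Most red points lie lower left, the muscle genes fall along the vertical axis, and C10orf27 lies outside the plotted range at -8.16 on chow.

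Fits that left out 1 array kept few of the calls carried by both bases. Each such fit has 1 array in a diet and less to estimate the spread from, so a call can be lost without a changed effect. Of the 18 genes, 1 was still called without control array 1 and 3 without control array 2, 1 without either MSG array, 3 and 5 without trans-fat/HFCS array 1 or 2, and 8 and 11 without combined-diet array 1 or 2. Counted afresh, the genes called and carried by both bases then numbered between 1 and 22. All 18 kept the direction of their mean change in each of these fits. When a gene's value was the median of its probe sets in place of their mean, 2 genes carried by both bases were called, and 1 of the 18, ODF3L2, was among the 13 calls. With the brightest probe set of each gene, 8 of the 18 were still called. A model of diet and MSG that leaves out the interaction, and so counts differences between the bases as error, called PHOSPHO1 alone.

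FOS, a subunit of the AP-1 transcription factor, stood at log2 4.92 and 4.84 on the control arrays and at 3.55 and 3.82 on the MSG arrays. On the trans-fat/HFCS base it stood at 4.28 and 4.20 without MSG and at 3.69 and 3.31 with it. All 4 MSG arrays were below all 4 others, and the trans-fat/HFCS arrays were already below the controls. FOS fell 1.96-fold on average (log2 -0.97, SE 0.13, adjusted p = 0.022 in limma), and all 5 of its probe sets were lower on both bases.

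GADD45B, a stress-induced protein that activates MAP kinase signalling, measured log2 5.28 and 5.41 on control, 4.24 and 4.29 on MSG, 4.63 and 4.74 on trans-fat/HFCS and 4.09 and 3.89 on the combined diet. The groups did not overlap and the combined diet was lowest. Its mean change was -0.89 (SE 0.12, adjusted p = 0.018 in limma), a 1.85-fold fall, with 5 of 6 probe sets lower on both bases. NFKBIA, the inhibitor that holds NF-kappa-B in the cytoplasm and is itself switched on by it, measured 6.90 and 6.92 on control, 5.81 and 5.86 on MSG, 6.76 and 6.69 on trans-fat/HFCS and 6.20 and 6.13 on the combined diet. The groups did not overlap on either base, and each of its 6 probe sets was lower on both bases. It fell 1.76-fold (log2 -0.82, SE 0.11, adjusted p = 0.019 in limma).

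PLK2, a polo-like kinase induced by growth signals and stress, stood at log2 6.99 and 7.03 on control, 5.92 and 5.58 on MSG, 7.18 and 7.38 on trans-fat/HFCS and 6.57 and 6.68 on the combined diet. The decrease was larger on chow (-1.26) than on the trans-fat/HFCS base (-0.66), a ratio of 0.521 that put it just inside the limit for a gene carried by both bases. YPEL1, at -1.24 and -0.54 with a ratio of 0.436, lay just outside among genes with more than 1 probe set. PLK2 fell 1.94-fold (log2 -0.96, SE 0.13, adjusted p = 0.019 in limma), with 13 of 15 probe sets lower on both bases. NFKBIZ, an NF-kappa-B cofactor named here after its values were seen, also fell on average (log2 -0.99, SE 0.13, adjusted p = 0.020 in limma), but by -1.49 on chow and -0.49 on the other base. Each of these calls was lost in most of the 8 fits that left out 1 array. Such a fit has 1 array in a diet and less to estimate the spread from. Over those fits the mean change lay between -1.23 and -0.87 for FOS and between -0.94 and -0.84 for GADD45B. It lay between -0.83 and -0.80 for NFKBIA, -1.04 and -0.87 for PLK2, and -1.08 and -0.90 for NFKBIZ.

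The list of immediate early genes gives the wider family. Of 20 measured members 2 were called, FOS and EGR1, both lower, where 0.285% of all tested genes were called lower. In 14 of the 20 (70%) the sign was the same on both bases, 10 lower and 4 higher, where 48% of all tested genes had the same sign. The median change was -0.15 against 0.00 for all tested genes. EGR1, a zinc finger transcription factor, fell on average (log2 -1.29, SE 0.14, adjusted p = 0.0086 in limma). It stood at 5.91 and 6.16 on control and at 3.96 and 4.03 on MSG, but at 5.55 and 5.98 on trans-fat/HFCS and at 5.35 and 5.10 on the combined diet, so most of its change came from chow. With its brightest probe set EGR1 was no longer called (-0.39, adjusted p = 0.49 in limma).

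ZFP36, which marks short-lived mRNAs for decay, rests on 1 probe set, had -0.61 and -0.85 on the 2 bases and missed the threshold (adjusted p = 0.054 in limma). The growth-inhibitory gene BTG2, with -0.51 and -0.43, did not pass either (adjusted p = 0.24). Other members went the other way. MYC had 1.15 on chow and 0.14 on the trans-fat/HFCS base (adjusted p = 0.12 in limma), JUND had 0.30 and 0.29, and DUSP1 had 1.49 and -0.78. The list therefore did not move as 1 block.

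**Figure D2:**
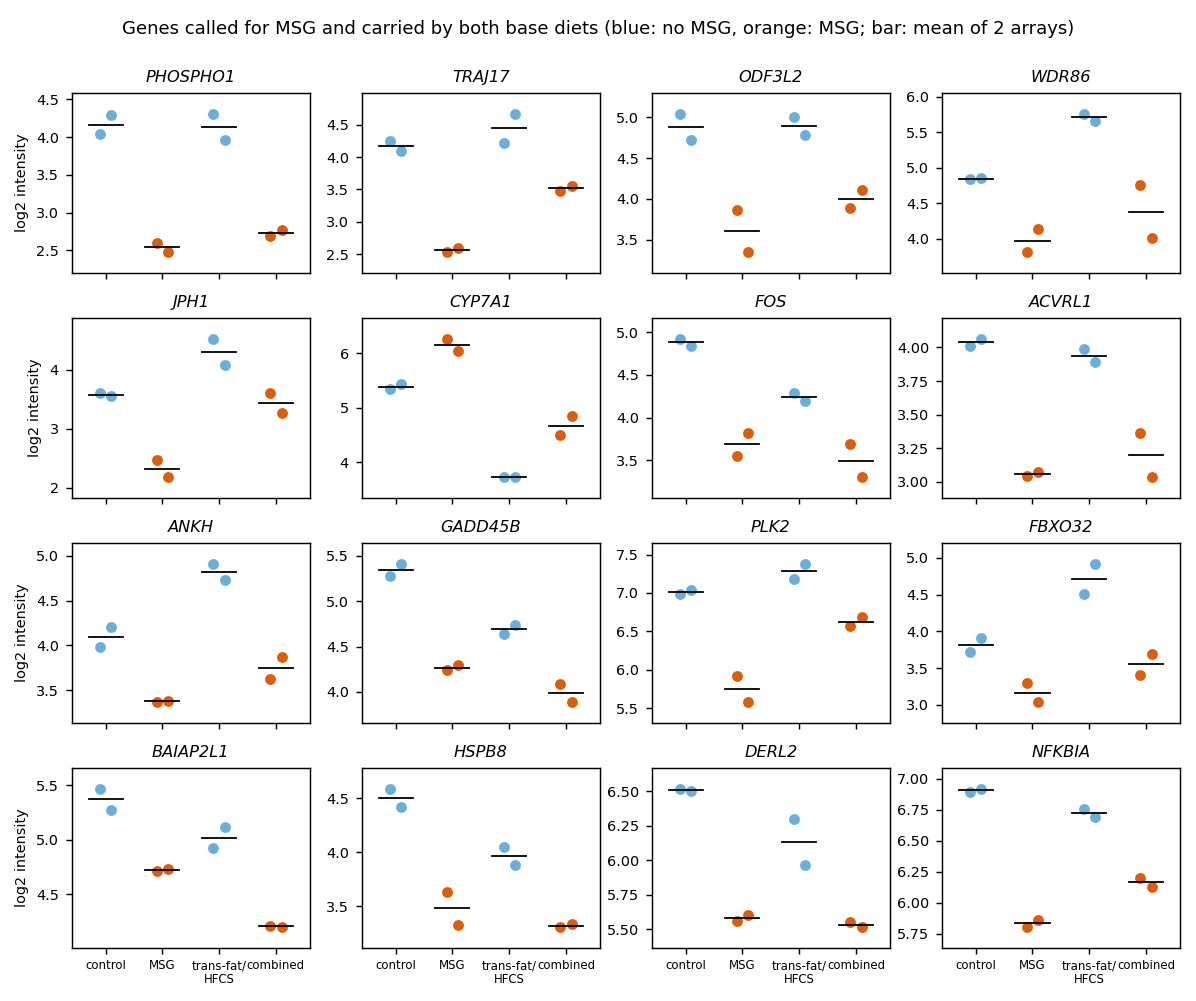
Log2 intensity (vertical axes, scales differ) on each of the 8 arrays for the 16 called genes carried by both bases that have more than 1 probe set. Blue points are arrays without MSG, orange points arrays with MSG, and bars the mean of 2 arrays. In every panel both orange points lie on the same side of the blue points of their own base, below them in all genes but CYP7A1.

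Of the called genes carried by both bases, 2 were higher with MSG, CYP7A1 and the single-probe-set pseudogene POU5F1P3. CYP7A1, the enzyme that commits cholesterol to bile acids, measured log2 5.34 and 5.43 on control, 6.26 and 6.04 on MSG, 3.73 and 3.73 on trans-fat/HFCS and 4.50 and 4.84 on the combined diet. It rose within each base, while both combined-diet arrays stayed below the control arrays. The changes were 0.77 on chow and 0.94 on the trans-fat/HFCS base, a mean rise of 1.81-fold (log2 0.85, SE 0.13, adjusted p = 0.032 in limma). Its 4 probe sets had mean changes from 0.36 to 1.61, and 3 of them were higher on both bases. Those 3 rose less on chow than on the trans-fat/HFCS base, the brightest by 0.50 and 1.52. The remaining one had 1.20 on chow and -0.49 on the other base, so the near-equal changes of the gene are an average of unlike probe sets. The call held in 1 of the 8 fits that left out 1 array and in 6 of all 20 alternatives. It ended without the filter on dim probe sets (0.48, adjusted p = 0.052 in limma), with the brightest probe set (1.01, adjusted p = 0.087) and with the median of probe sets (0.80, adjusted p = 0.29). The replicate number as a block (adjusted p = 0.077 in limma), the 2 models without the interaction (adjusted p = 0.083 and 1.00) and leaving out the trans-fat/HFCS diet (0.77, adjusted p = 0.29) ended it too. No other of the 20 measured genes of bile acid synthesis and transport was called, where 0.329% of all tested genes were. The median change of the 20 was 0.02.

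Among genes that carry and burn fatty acids, none of 20 measured members was called, where 0.329% of all tested genes were. With an unadjusted p under 0.05 in limma, 6 were higher (3.74% of all tested genes were) and none lower (4.17%). In 13 of the 20 (65%) the sign was the same on both bases, 10 of them higher, against 48% of all tested genes. FABP1, the fatty acid binding protein of hepatocytes, had 0.77 on chow and 0.74 on the trans-fat/HFCS base (SE of the mean change 0.17, adjusted p = 0.19 in limma). It stood at log2 5.22 and 4.85 on control, 5.57 and 6.04 on MSG, 4.48 and 4.31 on trans-fat/HFCS and 5.40 and 4.87 on the combined diet. CPT1A, which admits fatty acids to mitochondria, had 1.20 on chow and 0.12 on the other base (adjusted p = 0.077 in limma), and the lipid droplet coat PLIN2 had 0.88 and 0.12 (adjusted p = 0.36).

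Among the 18 genes carried by both bases the smallest adjusted p was that of PHOSPHO1, a phosphatase of phosphocholine and phosphoethanolamine known from bone mineralisation. It measured log2 4.03 and 4.29 on control, 2.60 and 2.48 on MSG, 4.31 and 3.96 on trans-fat/HFCS and 2.69 and 2.77 on the combined diet. The 4 MSG arrays lay close to the median of all probe sets (2.43) and well below the lowest of the others. It fell with MSG (log2 -1.51, SE 0.13, adjusted p = 0.0018 in limma), by -1.62 on chow and -1.40 on the trans-fat/HFCS base. The call held in all 8 fits that left out 1 array and in 19 of the 20 alternatives run. The exception was the median of its probe sets (log2 -0.64, adjusted p = 0.44 in limma), because 1 of 3 probe sets changed by -4.24 and -4.03 on the 2 bases while the other probe sets had mean changes of -0.47 and 0.07. The size of the decrease is therefore loosely set, at -1.02 without the filter on dim probe sets and -4.13 with the brightest probe set, and no fold is given.

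ANKH, a membrane protein that exports pyrophosphate and ATP, was spread more evenly over its probe sets. It stood at log2 3.99 and 4.21 on control, 3.37 and 3.38 on MSG, 4.91 and 4.73 on trans-fat/HFCS and 3.63 and 3.87 on the combined diet. The trans-fat/HFCS arrays were the highest and the MSG arrays the lowest. ANKH fell 1.86-fold (log2 -0.89, SE 0.12, adjusted p = 0.022 in limma), and 9 of its 12 probe sets were lower on both bases. It was called in 2 of the 8 fits that left out 1 array.

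FBXO32, a ubiquitin ligase subunit best known from muscle wasting, measured 3.72 and 3.91 on control, 3.29 and 3.04 on MSG, 4.50 and 4.92 on trans-fat/HFCS and 3.41 and 3.69 on the combined diet. JPH1, a junctional membrane protein of skeletal muscle, measured 3.61 and 3.55, 2.46 and 2.19, 4.52 and 4.08, and 3.60 and 3.26 in the same order. For both the trans-fat/HFCS arrays were highest, and combined-diet array 1 reached the control level for JPH1. FBXO32 fell by 0.90 on the log2 scale (SE 0.15, adjusted p = 0.048 in limma) with all 6 probe sets lower on both bases, and JPH1 fell by 1.06 (SE 0.15, adjusted p = 0.023). All 3 probe sets of JPH1 were lower on both bases, but 1 changed by -3.39 on chow and -0.49 on the other base, and another by -0.12 and -1.62.

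Skeletal muscle genes were high on the trans-fat/HFCS arrays. The summed intensity of 23 measured muscle genes was 1039 and 1062 there, 310 to 316 on control, 319 to 321 on MSG and 306 to 327 on the combined diet. The MSG change on the trans-fat/HFCS base is measured from those arrays, so for FBXO32 (-0.65 on chow, -1.16 on the other base), JPH1 (-1.25 and -0.87), ANKH (-0.72 and -1.07) and WDR86 (-0.87 and -1.33), each higher on trans-fat/HFCS than on control, the part of muscle RNA in the second value was not tested. The changes on chow were measured where the muscle list was level. Without the trans-fat/HFCS diet, none of the 4 passed (adjusted p between 0.069 for JPH1 and 0.42 for FBXO32 in limma). Most genes carried by both bases were lost in that fit, as 3 of all 18 were still called. HSPB8, a small heat shock protein, had lower levels on trans-fat/HFCS (4.05 and 3.88) than on control (4.59 and 4.42). With MSG it fell on average (log2 -0.83, SE 0.13, adjusted p = 0.032 in limma), to 3.63 and 3.33 on MSG and 3.31 and 3.34 on the combined diet. Different probe sets lay behind its 2 changes. Of 3, 1 changed by -2.04 on chow and -0.07 on the other base, and another by -0.16 and -1.25. DERL2, of the machinery that removes misfolded proteins from the endoplasmic reticulum, was -0.76 (SE 0.12, adjusted p = 0.044 in limma), but 1 of 5 probe sets changed by -3.06, the others had a median of -0.21, and its brightest probe set had 0.02. HSPB8, DERL2 and NFKBIA lie beyond the 12 decreases that the naming rule took and were added after their values were seen. FBXO32, HSPB8 and DERL2 were called in none of the 8 fits that left out 1 array.

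In other decreases carried by both bases, single probe sets changed far more than the rest. ACVRL1, a receptor of the TGF-beta family found on endothelium, measured log2 4.01 and 4.06 on control, 3.04 and 3.08 on MSG, 3.99 and 3.89 on trans-fat/HFCS and 3.36 and 3.04 on the combined diet (mean change -0.86, SE 0.12, adjusted p = 0.024 in limma). However, 1 of its 8 probe sets changed by -7.06 on chow and -3.34 on the trans-fat/HFCS base, and the rest had a median of -0.14. None of 14 endothelial markers was called (median change -0.04), where 0.329% of all tested genes were. A list of this size would be likely to hold no called gene at that share. The actin-binding protein BAIAP2L1 (-0.65 on chow, -0.81 on the other base) had different probe sets behind its changes. Of its 7, 1 changed by -4.26 on chow and -0.87 on the other base, and another by -0.40 and -2.65. In ODF3L2, a relative of sperm tail proteins (-1.28 and -0.90), 1 of 3 was at -3.11 and the rest had a median of -0.07. In WDR86 and in the T cell receptor segment TRAJ17 (-1.60 and -0.93), 1 of 2 probe sets was at -2.51 and -2.09, and the other at 0.31 and -0.44. None of 17 lymphocyte markers was called either, where 0.329% of all tested genes were, and a list of this size would be likely to hold none. BAIAP2L1 was called in none of the 8 fits that left out 1 array, ACVRL1 and ODF3L2 in 1, WDR86 in 2 and TRAJ17 in 5.

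**Figure D3:**
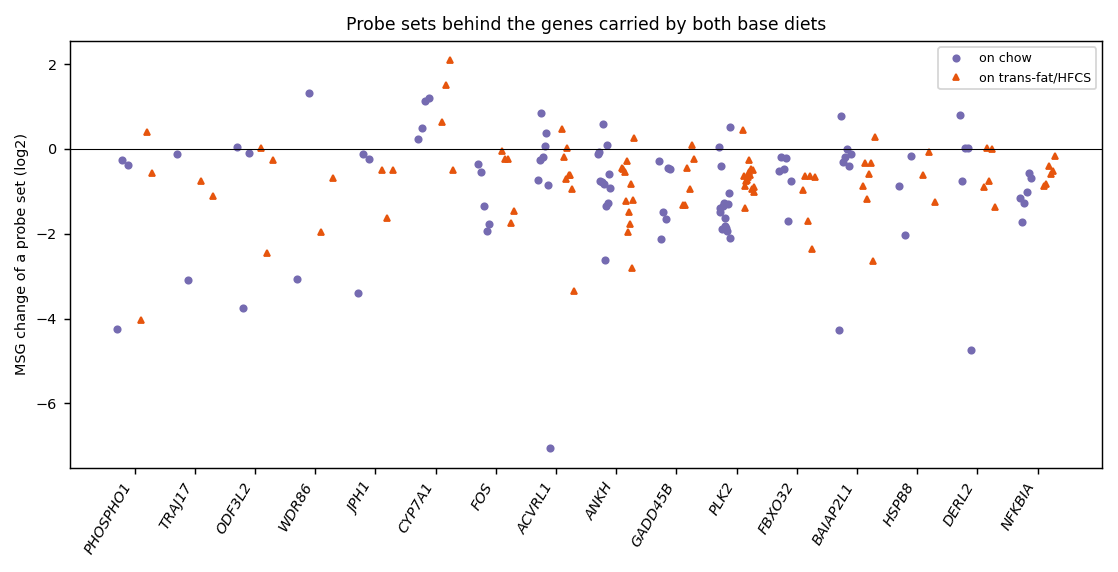
MSG change (vertical axis, log2) of every kept probe set of the 16 called genes carried by both bases that have more than 1 probe set. Purple circles are changes on chow and orange triangles changes on the trans-fat/HFCS base. NFKBIA, FOS, FBXO32 and most probe sets of PLK2 lie below 0 together, whereas PHOSPHO1, ODF3L2 and ACVRL1 each have 1 probe set far below the others on both bases, and DERL2 and BAIAP2L1 on chow.

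Genes carried by 1 base show the contrast. FST, which encodes follistatin, an antagonist of activin, stood at log2 4.34 and 4.24 on control and at 6.92 and 6.88 on MSG, but at 5.94 and 6.27 on trans-fat/HFCS and at 6.35 and 6.38 on the combined diet. Its mean rise of 1.44 (SE 0.12, adjusted p = 0.0016 in limma) was thus made of 2.61 and 0.26, and the difference between the bases passed its own test (-2.34, SE 0.24, adjusted p = 0.013). No other of the 17 measured genes of the activin axis was called, where 0.329% of all tested genes were. DIO2, the deiodinase that activates thyroid hormone, measured 3.36 and 3.34, 5.16 and 5.43, 3.18 and 3.03, and 3.39 and 3.61 on control, MSG, trans-fat/HFCS and combined diets. The rise on chow (1.94) was seen on both arrays, the 0.40 on the other base was small, and their difference did not pass (adjusted p = 0.082 in limma). The 7 probe sets of DIO2 had mean changes from -0.40 to 2.71, and 4 of them were higher on both bases.

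SLC25A25, a calcium-regulated carrier of the mitochondrial inner membrane, had 2.11 on chow and 0.19 on the trans-fat/HFCS base, a difference that passed (adjusted p = 0.036 in limma). Of the genes with the larger change on the trans-fat/HFCS base, 10 of 13 were on the skeletal muscle list. ACTA1, skeletal muscle actin, measured 4.71 and 4.74 on control, 4.67 and 4.88 on MSG, 7.57 and 7.60 on trans-fat/HFCS and 4.47 and 4.64 on the combined diet. The fall in its mean change (log2 -1.49, SE 0.12, adjusted p = 0.0011 in limma) came wholly from the trans-fat/HFCS arrays, as its change on chow was 0.05. The lipase CEL was another of the 13, with levels of 2.75 and 2.53 on trans-fat/HFCS against 4.16 and 4.30 on the combined diet and a change of 0.26 on chow. Its call (0.93, adjusted p = 0.044 in limma) was lost in every fit that left out 1 array. No other of the 18 measured lipases and cofactors was called, where 0.329% of all tested genes were.

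**Figure D4:**
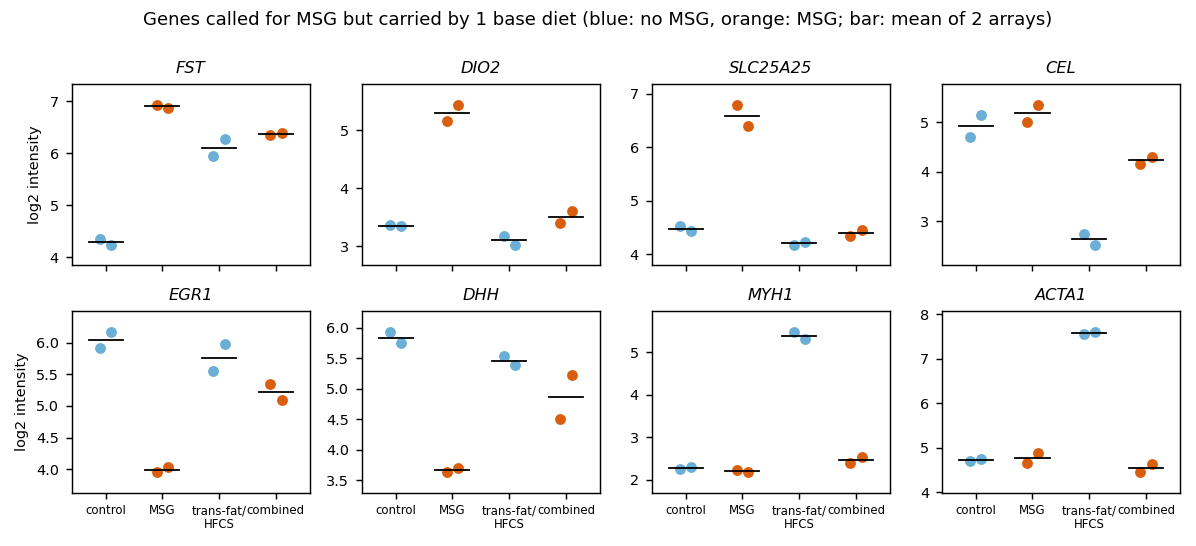
Log2 intensity (vertical axes, scales differ) on each of the 8 arrays for 8 called genes carried by 1 base. Blue points are arrays without MSG, orange points arrays with MSG, and bars the mean of 2 arrays. FST, DIO2, SLC25A25, EGR1 and DHH differ mainly between control and MSG, and CEL, MYH1 and ACTA1 mainly between trans-fat/HFCS and the combined diet.

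Increases of like size on both bases were found below the threshold. Of genes carried by both bases with an unadjusted p under 0.01, 61 uncalled ones were higher and 85 lower. Of all tested genes 2.31% had such a p in either direction. That share covers a wider set, with called genes and genes carried by 1 base in it. SLC16A1, a lactate and ketone carrier of the plasma membrane, had nearly equal changes, at 0.65 on chow and 0.63 on the trans-fat/HFCS base (adjusted p = 0.082 in limma). It measured log2 4.89 and 4.68 on control, 5.39 and 5.48 on MSG, 4.70 and 4.56 on trans-fat/HFCS and 5.33 and 5.19 on the combined diet. All 4 MSG arrays lay above the others, and all 7 of its probe sets were higher on both bases.

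The circadian repressor BHLHE40 had 0.78 and 0.52 on the 2 bases (adjusted p = 0.23 in limma), and FGL2, a fibrinogen-like protein, had 0.61 and 0.69 (adjusted p = 0.29). ABCC5, an exporter of cyclic nucleotides, had 0.73 and 0.51 (adjusted p = 0.095 in limma), with 18 of 29 probe sets higher on both bases. The muscle coactivator MYOCD had 0.79 and 0.56 (adjusted p = 0.080 in limma), but each of its probe sets moved mainly on 1 base. Of 3, 1 had 0.20 on chow and 1.36 on the other base, and the rest had 1.09 on chow with 0.11 and 0.19 on the other base. The repressor E2F6, the phosphatase DUSP12, ZNF345, CIB4 and ROM1 made up the rest of the 11 by the naming rule, with mean changes between 0.59 and 0.80 and adjusted p between 0.17 and 0.37 in limma. None of the 11 is a called increase.

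Genes that handle glutamate itself were not called, where 0.329% of all tested genes were. Of 23 measured genes of glutamate and glutamine metabolism, 13 (56.5%) had the same sign on both bases, 8 higher and 5 lower. Of all tested genes 48% had the same sign. The median change of the 23 was 0.06. A list of this size would be likely to hold no called gene at the share of all tested genes. GLUL, glutamine synthetase, had -0.64 on chow and -0.28 on the other base (adjusted p = 0.39 in limma), and GCLC, which makes the glutathione precursor from glutamate, had 0.36 and 0.40 (adjusted p = 0.43). GAD2, glutamate decarboxylase, had -0.41 and -0.82 (adjusted p = 0.24), but its sign turned with the brightest probe set and with the 75th percentile filter (0.07 each). None of 24 glutamate and umami receptor genes had an unadjusted p under 0.05, where 7.91% of all tested genes did.

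In all, 16 of 24 pathway lists held no called gene, and 18 had a median change within 0.1 of 0. With 0.329% of all tested genes called, most lists of these sizes would be likely to hold none. The lowest median was that of immediate early genes (-0.15) and the highest that of the activin and follistatin axis (0.20). Among 19 measured genes of insulin and IGF signalling, 14 (73.7%) had the same sign on both bases, 8 higher and 6 lower. Of all tested genes 48% had the same sign. None of the 19 was called, where 0.329% of all tested genes were. The smallest p belonged to the insulin receptor substrate IRS2 (-0.82 on chow, -0.27 on the other base, adjusted p = 0.15 in limma) and the growth factor IGF1 (-0.72 and -0.26, adjusted p = 0.18). In IRS2, 1 of 2 probe sets was at -1.19 and the other at 0.11. Of 12 marker lists of cell types, skeletal muscle (10 lower) and pancreas (CEL, higher) held called genes. Most lists of these sizes would be likely to hold none at the share of all tested genes. The erythroid marker HBB had -0.67 and -0.59 on the 2 bases (adjusted p = 0.25 in limma), but 1 of its 4 probe sets was at -2.29 and the rest had a median of -0.08.

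**Figure D5:**
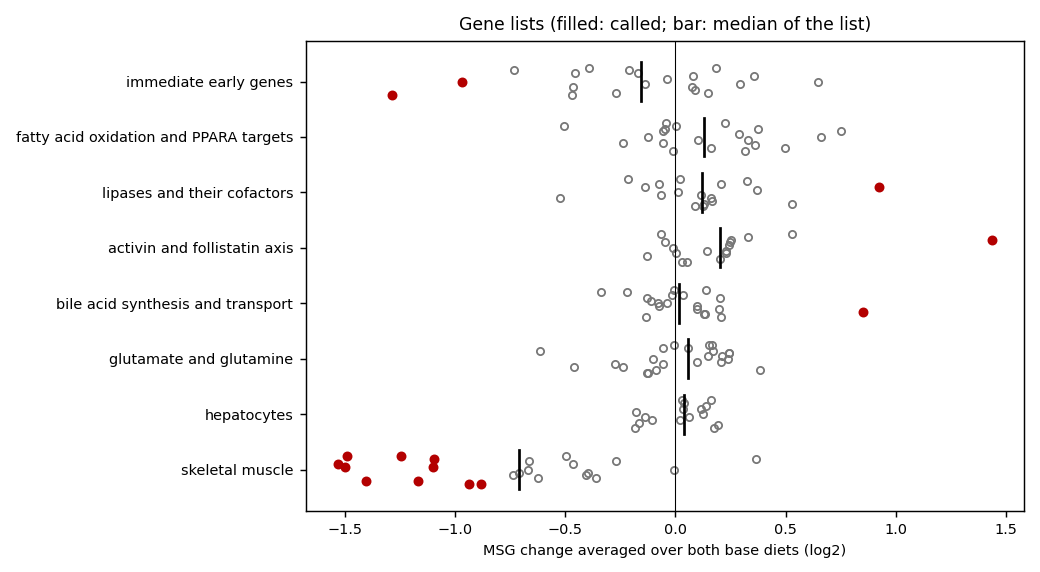
MSG change averaged over both base diets (horizontal axis, log2) of each measured gene in 8 lists, with filled red circles for called genes, open circles for the others and a bar at the median of the list. FOS and EGR1 stand apart at the left of the immediate early genes, the hepatocyte markers lie within 0.2 of 0, and 10 muscle genes are called lower.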

How the data were processed

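Total RNA of liver (250 ng) was made into biotin-labelled DNA and hybridised to 8 arrays, per the labels' protocols, which used 4 to 5 livers per diet. The authors deposited normalized intensity values per probe set on a linear scale, and GCRMA, Partek and hg19 are named without role or version, per the submitters' processing notes. Here the values were log2 transformed. Of 257101 probe sets, those with a mean above the median of all (log2 2.43) and a single gene name in the platform annotation (111624) were averaged per gene, giving 17910 genes with a median of 5 probe sets. No coordinates or sequences were used. A 4-group model was fitted by lmFit and eBayes of limma 3.58.1 under R 4.3.3 (4 residual degrees of freedom, prior 5.01), two-sided with Benjamini-Hochberg adjustment. Errors are moderated standard errors. The steps were tested on simulated data.

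Members, the 0.5 limit and the 36 gene lists were chosen with earlier results of these data known. The naming rule took, per direction, up to 12 called genes carried by both bases by their smaller change, filled with uncalled ones at an unadjusted p under 0.01, up to 6 called genes carried by 1 base, and up to 4 genes of smallest p per list described. Counted but not described were non-coding RNAs, olfactory receptors, uncharacterised loci and genes with a single probe set, and muscle genes were described together. Array number limits the precision.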

Additional observations from a re-analysis of the deposited data

Results flagged for a closer look

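The MSG change differed between the base diets in 17 of the 59 called genes, by limma's test of the difference (adjusted p under 0.05). Each value subtracts the change on chow from that on the trans-fat/HFCS base (log2). The difference was negative for FST (-2.34), SLC25A25 (-1.92) and the muscle genes MYL1 (-3.21), ACTA1 (-3.08), SLN (-2.89), MYH1 (-2.85), TPM2 (-2.32), MYH2 (-2.30), MYBPC1 (-2.12) and MYLPF (-2.08). It was positive for SLC15A3 (1.94), BEGAIN (1.99) and OSGIN2 (2.29), and for 4 genes of 1 probe set each, HPS6 (1.96), KIAA1239 (2.08), FBXL14 (2.34) and C10orf27 (7.41). In SLC15A3 and BEGAIN 1 of 3 probe sets changed far more on chow than the rest. It had -6.04 on chow and -0.76 on the other base in SLC15A3, and -5.17 and -0.63 in BEGAIN.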

How the results depend on the processing

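With 2 arrays per diet the count of calls moved with the setting. The 59 calls became 13 with the median of a gene's probe sets, 106 with the brightest probe set, 92 with a trend and robust prior, 1 (PHOSPHO1) with the interaction left out or with MSG as the sole term, and 39 without the trans-fat/HFCS diet, an alternative added after seeing the data. They numbered 15 to 70 without 1 array: 17 and 22 without a control array, 15 without either MSG array, 26 without trans-fat/HFCS array 1 and 39 without combined-diet array 1. The 18 genes carried by both bases became 2 with the median and 31 with the trend and robust prior, and 1 to 22 without 1 array. The other settings (filters, quantile normalization, array weights, muscle list left out) stayed within 1.5 times of both counts, but not always with the same genes. Of the 18, 12 were still called without the filter on dim probe sets, 12 with the 75th percentile filter and 14 with the muscle list left out. All 18 were with quantile normalization and with array weights. The demand for a change on each base gave 0 calls in every setting where it was run. With the replicate number as a block, 53 genes were called and 14 carried by both bases. Same-numbered arrays share only a number, with correlations of their deviations between -0.06 and 0.04 over 6 pairs of diets. Signs turned for DERL2 (0.021), KBTBD10 (0.71), MYH7 (0.073), SLC15A3 (0.19) and GAD2 (0.070) with the brightest probe set, for MYBPC1 (0.36) and GAD2 (0.070) with the 75th percentile filter, and for SLN (0.040), ACTA1 (0.049), MYL1 (0.077), TPM2 (0.061) and MYLPF (0.10) without the trans-fat/HFCS diet. The causes were not tested.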

Other observations

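Single probe sets with very large decreases on chow were lower on the other base too. Among kept probe sets, 184 were lower by 3 or more on the log2 scale on MSG than on control, and 37 were higher by that much. Of the 184, 141 (76.6%) were also lower by at least 0.5 on the combined diet than on trans-fat/HFCS, where 18.1% of all kept probe sets were, and 16 were higher by at least 0.5. Their median change on that base was -0.98. The 37 had a median of -0.35 there, with 7 higher and 17 lower by at least 0.5. The 2 differences share no array, although the filter on dim probe sets uses all 8. A probe set must be well above the floor on control to fall by 3, whereas all kept probe sets reach down to log2 2.43. The shares were thus not matched for level, and the comparison cannot tell a shared MSG change from room to fall. C10orf27, with 1 probe set and named after its values were seen, was the largest, at log2 10.17 and 10.06 on control, 1.95 and 1.96 on MSG, 10.28 and 10.28 on trans-fat/HFCS and 9.64 and 9.43 on the combined diet. SPIN2A, also with 1 probe set, stood at 6.00 and 6.03, 2.48 and 2.90, 6.11 and 6.23, and 5.01 and 4.54 in the same order. Both were lowest on the MSG diet and lower on the combined diet than on trans-fat/HFCS.

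Fitted one by one in limma, 169 probe sets in 144 genes were called for MSG, 163 of them lower, and 24 were carried by both bases, 21 of those lower. Only 13 genes had 2 or more called probe sets. EMID2 was the only one of the 13 whose called probe sets (2 of 9) were carried by both bases. The other 12 held genes of skeletal muscle such as MYH1, ACTA1, NEB, TTN and PYGM.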
